A study of Homo sapiens with 9 samples.

Results

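In 3 related human cell lines, 53 annotated transcripts had more nascent RNA signal near their starts 3 h after UV-C light. Signal here is relative to the total of its library. It was no longer clearly raised at 16 h in the lines used to choose the set. The 53 came from 7936 transcript identifiers that occurred in all 9 libraries of a BrU-seq series on STK19, a protein that the series studies in the recovery of transcription after UV-C. For each identifier, the level in a library was the mean signal per 200-bp bin from the transcription start site (TSS) to 10 kb downstream, and changes are differences of log2(level + 0.5). Members were chosen by these measured values: each had a change of 0.8 or more from its own mock at 3 h in each of the 3 lines, a mean 3 h level of 2 or more, and a change under 0.5 at 16 h in both of the lines with no transgene. The same rule without its 16 h part held 261 identifiers, so the members were 20.3% of those raised at 3 h in all 3 lines. The choice depends on how libraries are scaled: after rescaling by trimmed means the same rule found 46 identifiers, 29 of them among the 53. The levels of the third line at 16 h were not used to choose members and serve as a check on them, although its mock and 3 h levels were used.

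The 3 lines were RPE1, a cultured human retinal pigment epithelium line, and are labelled as RPE1 iCas9 p53/puro-dKO, so all of them, the controls included, share the iCas9 background and the p53 knockout that this label names. WT had intact STK19, KO was the STK19-KO line, and rescue was STK19-KO+STK19-TY, the knockout with an added STK19 transgene. The number of clones behind each line and the promoter of the transgene are not given in the sources used here. Cells of each line received a mock treatment or 12 J/m2 of UV-C light, and irradiated cells were sampled at 3 h or 16 h, which gave 9 groups of 1 library each. Nascent RNA was labelled for 30 min with 2 mM bromouridine and pulled down with an antibody against BrdU. The labels differ on whether labelling began at 3 h and 16 h or at 2.5 h and 15.5 h after irradiation.

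UV-C links neighbouring pyrimidines in DNA, and RNA polymerase II that meets such a lesion in a transcribed strand stalls until transcription-coupled repair removes it. Long transcription units are hit more often than short ones, so nascent RNA is best kept close to the TSS in the first hours. Cells also answer UV through stress kinases that switch on transcription factor genes and their feedback regulators within hours, a response that in many cases is short-lived. Many genes of the UV response depend on p53 in other cells, and these lines lack it. The files name transcripts by identifiers that matched no entry of the reference table used here, so gene symbols, gene families, cell type markers and STK19 itself were not analysed here. The label of these lines as retinal pigment epithelium was therefore not checked against markers. Whether any member belongs to a known UV-response pathway was not tested.

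The libraries held between 8499 and 9520 identifiers each. The authors had scaled them to similar sums and the smallest step of signal showed how deep each was. A level is thus relative to the total of its library. No spike-in is given in the sources used here, so changes in the amount of RNA per cell were not measured. KO at 3 h was the shallowest library, with a step of 4.88, and WT at 16 h was 13.1 times deeper, with a step of 0.373. A single step was worth 0.0976 of level in KO at 3 h and 0.0075 in WT at 16 h. In 4 members, some library held under 20 steps over the 10 kb, the lowest being 4 steps in rescue mock. With 1 library per line and condition there was no replicate check of any single value, and tests used the 3 lines, or the 3 conditions, in place of repeats. In such bulk samples, fewer cells making an RNA and less of it per cell cannot be told apart.

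Before irradiation the members spanned a wide range of activity. In WT mock their levels ran from 0.433 to 213.7 with a median of 10.96, in KO mock from 0.44 to 254.4 with a median of 10.95, and in rescue mock from 0.109 to 306.2 with a median of 9.60. These medians stood above those of the 3996 identifiers that entered the tests, which were 4.33, 4.02 and 3.51 in the same order. The rule asked for a mean 3 h level of 2 or more, which sets part of this gap. All 261 identifiers that met its 3 h part had mock medians of 7.71, 6.08 and 5.88. The members were mostly transcripts already active in unirradiated cells, with 8 at a mean mock level of 50 or more and 6 under 2. At 3 h the median level was 35.1 for WT, 26.9 for KO and 24.4 for rescue. At 16 h it was 4.92 for WT, 9.21 for KO and 11.8 for rescue. The WT median at 16 h lay under its own mock, that of KO lay slightly under, and that of rescue lay above.

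**Figure D1:**
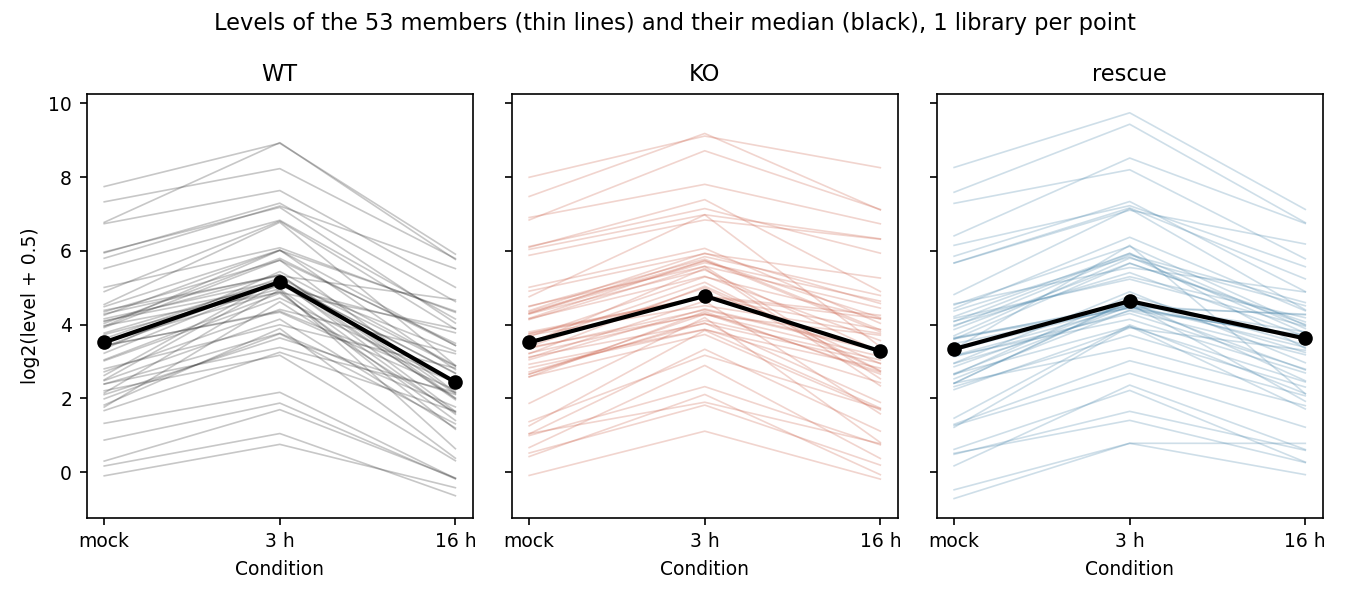
Each thin line is 1 of the 53 members, with log2(level + 0.5) of the first 10 kb on the vertical axis and the condition on the horizontal axis, in a panel for each line; each point on it is 1 library, and the black line joins the medians. All members climb from mock to 3 h, as the rule requires, and the median then falls furthest in WT, from 35.1 to 4.92 in level.

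The rise at 3 h is what chose the members, so its size is given as a description. The median change was 1.40 in WT, a 2.63-fold rise, with a range from 0.84 to 2.86. It was 1.33 in KO, or 2.51-fold, from 0.80 to 2.59, and 1.49 in rescue, or 2.81-fold, from 0.82 to 2.81. Over all identifiers tested, the medians of the same changes were 0.40 for WT, 0.14 for KO and 0.14 for rescue. In the limma test of 3 h against mock, with line as a block and Benjamini-Hochberg adjustment over all 3996 identifiers, 51 of the 53 were higher, beside 12.2% of all identifiers tested, and no member was lower, beside 6.16%. The remaining 2 members had adjusted p of 0.06219 and 0.1097 in that limma fit, and both were among the 8 with a mean mock level of 50 or more. Without the rescue libraries the limma test called 17 members, beside 227 of 3996 identifiers. With no filter on the level it called 9, beside 106 of 7936.

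The 3 h levels of all 3 lines stood above all 3 mock levels in 47 of the 53 members, beside 22.0% of identifiers tested. This follows largely from the choice, as the rule required a rise over mock in each line. Among all 261 identifiers that met the 3 h part of the rule, the share was 89.7%. A rise of at least 2-fold in every line was seen in 35 members and of at least 4-fold in 3. The largest of the 3 rises was in WT for 23 members, in rescue for 23 and in KO for 7. No shares over all identifiers are given for these fold and largest-rise counts, so they are not read as high or low. Of the members, 19 had a larger rise in KO than in WT, beside 35.0% of all identifiers, 28 a larger one in rescue than in WT, beside 34.2%, and 38 a larger one in rescue than in KO, beside 52.8%. Across the 53 members, Spearman's rho of the 3 h change was 0.40 between WT and KO, 0.48 between WT and rescue and 0.68 between KO and rescue, and over all 3996 identifiers it was 0.56, 0.66 and 0.64. The rule cut the members' changes at 0.8, which narrows their range, so no order of the lines is read from these values. KO at 3 h was also the shallowest library of the series, whose part in these counts was not tested.

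The strongest rise belonged to uc001hly.2. Its level in mock was 2.90 for WT, 1.89 for KO and 2.26 for rescue, and at 3 h it was 24.1, 13.9 and 15.4 in the same order. At 16 h it was 2.56 for WT, 2.83 for KO and 3.87 for rescue. The 3 h libraries are clearly apart from the other 6, and the mock and 16 h levels overlap. The change at 3 h was 2.66 with a standard error of 0.33 (limma adjusted p = 1.252e-09, on a contrast the rule used). Most of the added signal was near the TSS and within the first 10 kb: from 0 to 1 kb the WT level went from 7.85 to 40.1, and from 5 to 10 kb from 3.03 to 20.2, while from 50 to 100 kb it went from 1.36 to 0.91.

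The next was uc002vpm.2, with mock levels of 3.92 for WT, 3.14 for KO and 1.82 for rescue. At 3 h these were 30.4, 17.8 and 15.0, and at 16 h 1.05, 1.25 and 2.78. All 3 irradiated libraries at 3 h were higher than the other 6, with no overlap. The change at 3 h was 2.62 with a standard error of 0.35 (limma adjusted p = 7.79e-09, again on a contrast the rule used). Its WT level at 3 h was 59.7 from 1 to 5 kb, 6.90 from 5 to 10 kb and 0.00 from 10 to 25 kb. In 1-kb windows, WT signal at 3 h was highest 3.5 kb downstream of the TSS, at 96.8. It dropped to 5.78 at 6.5 kb. Towards and past the TSS the fall was slower, with 30.4 at 0.5 kb downstream and 8.97 at 4.5 kb upstream. Signal also rose upstream of its start, from 2.71 to 18.8 in WT in the 1 kb before the TSS. Which transcript or strand gave the signal around this TSS was not tested.

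**Figure D2:**
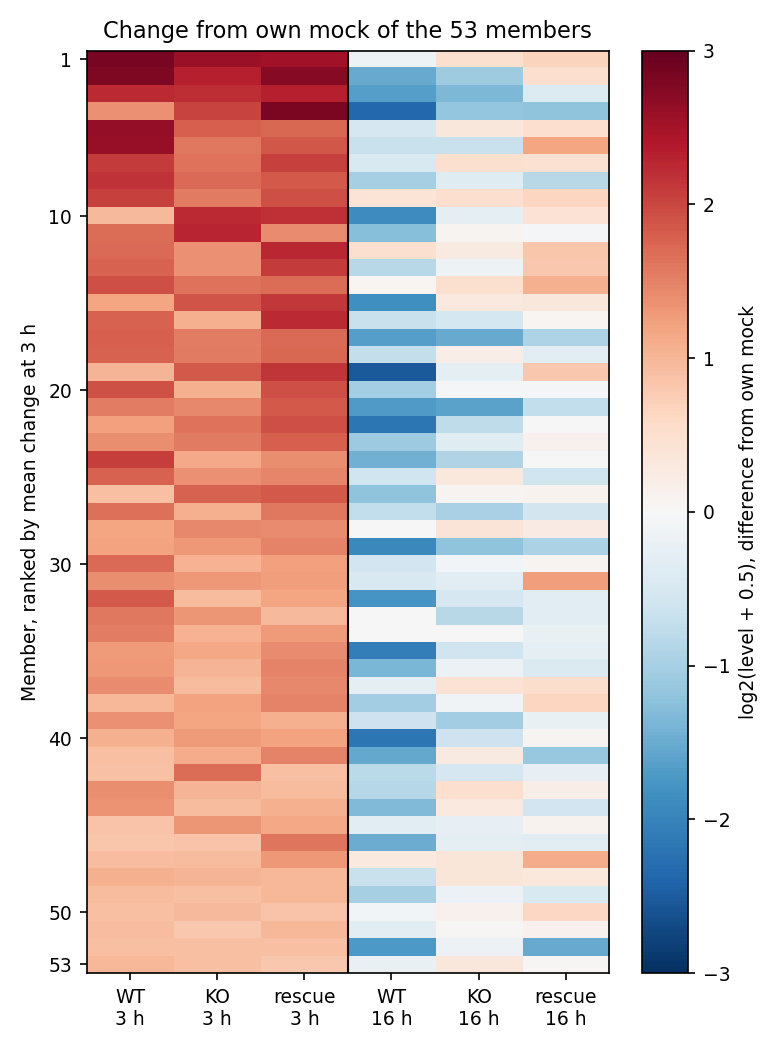
Rows are the 53 members ranked by their mean change at 3 h, columns are the 3 lines at 3 h and at 16 h, and colour is the change in log2(level + 0.5) from the mock library of the same line. The left columns are red throughout by the rule; of the right columns, WT is blue, below its mock, in 47 rows, KO in 32 and rescue in 24.

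At 16 h the members had left their peak in every line. In WT most of them were below their mock level, in signal relative to the library total. The median change from mock was -0.85 in WT, from -2.51 to 0.49, and -0.17 in KO, from -1.60 to 0.50, both capped by the rule. In rescue, which the rule did not use at 16 h, it was 0.07, from -1.50 to 1.26. All identifiers tested had medians of 0.09 for WT, 0.42 for KO and 0.55 for rescue. Set against those, the members' medians were -0.94 for WT, -0.59 for KO and -0.48 for the held-out rescue. The level of a typical identifier moved with the scaling. When the libraries were rescaled by trimmed means, which brought the medians of all identifiers at 16 h to -0.02, 0.02 and 0.03, the members' medians became -0.98 for WT, -0.58 for KO and -0.49 for rescue, so that the sign in rescue turned.

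In WT, 47 of the 53 members were below their mock at 16 h, beside 45.6% of identifiers tested, and 25 by more than 1 on the log2 scale, beside 10.4%. In KO, 32 were below, beside 33.4%, and 7 by more than 1, beside 9.46%. In rescue, 24 were below, beside 25.3%, and 3 by more than 1, beside 5.48%. With the trimmed-mean scaling the counts below mock were 50 for WT, beside 51.2% of all identifiers, 48 for KO, beside 48.9%, and 39 for rescue, beside 48.6%. The shares more than 1 below mock stood near those of all identifiers in KO and rescue and well above in WT, and the rule had used WT and KO here.

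The members split by how far the return went in each line. Those below mock in all 3 lines numbered 18, beside 14.1% of identifiers tested, and in 9, beside 9.23%, all 3 levels at 16 h lay under all 3 mock levels. A further 13 were below mock in WT and KO but not in rescue, 11 in WT alone, and 5 in WT and rescue but not in KO. No shares over all identifiers are given for these counts. Another 6 were at or above mock in WT, where 45.6% of identifiers were below it. This split depends on the scaling: with trimmed means, 37 members were below mock in all 3 lines, as were 998 of 4000 identifiers. The change at 16 h was the lowest of the 3 lines in WT for 46 members, beside 55.2% of identifiers. It was lowest in KO for 5 and in rescue for 2, with no share over all identifiers given. KO stood higher than WT in 47 members, beside 60.6%, rescue higher than WT in 50, beside 71.6%, and rescue higher than KO in 35, beside 59.7%. The excess of WT as the lowest line is smaller with the trimmed-mean scaling, in which WT was lowest for 31 members, beside 39.1%. The rule capped this change in WT and KO and left rescue free, so the counts against rescue partly follow from the choice. The difference between lines in this change has no test, as each is a single pair of libraries.

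Rescue gives the only 16 h levels that did not enter the choice. In rescue at 16 h, 40 of the 53 members were under 0.5 above their mock, the limit that the rule had set for the other two lines, beside 47.6% of all identifiers tested. The remaining 13 were at or above it, and 2 of those were among the 4 members with under 20 steps of signal. With the trimmed-mean scaling, 49 members were under the limit, beside 75.7%. Among the 208 other identifiers that met the 3 h part of the rule, 55, or 26.4%, were under 0.5 in rescue. These 208 fell into 125 that stayed raised at 16 h in KO alone, 75 in both WT and KO and 8 in WT alone. The median rescue change at 16 h was 0.69 for the 125 and 1.39 for the 75, beside 0.07 for the members. The rescue mock library enters both the choice at 3 h and this change, so they share a library.

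Rescue was also under its own 3 h levels. Its 16 h level was below its 3 h level in 53 of 53 members, beside 32.9% of identifiers tested, by more than 1 on the log2 scale in 42, beside 7.43%, and with a median of -1.50, beside 0.38. The same step was -2.48 for WT and -1.54 for KO, with 53 of 53 members lower in both, beside 64.3% and 37.1% of identifiers, all of these libraries having been used by the rule. The rescue 3 h library was used by the rule, so a fall from it is in part a consequence of the choice. The levels of all 3 lines at 3 h stood above all 3 levels at 16 h in 49 members, beside 10.8% of identifiers.

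**Figure D3:**
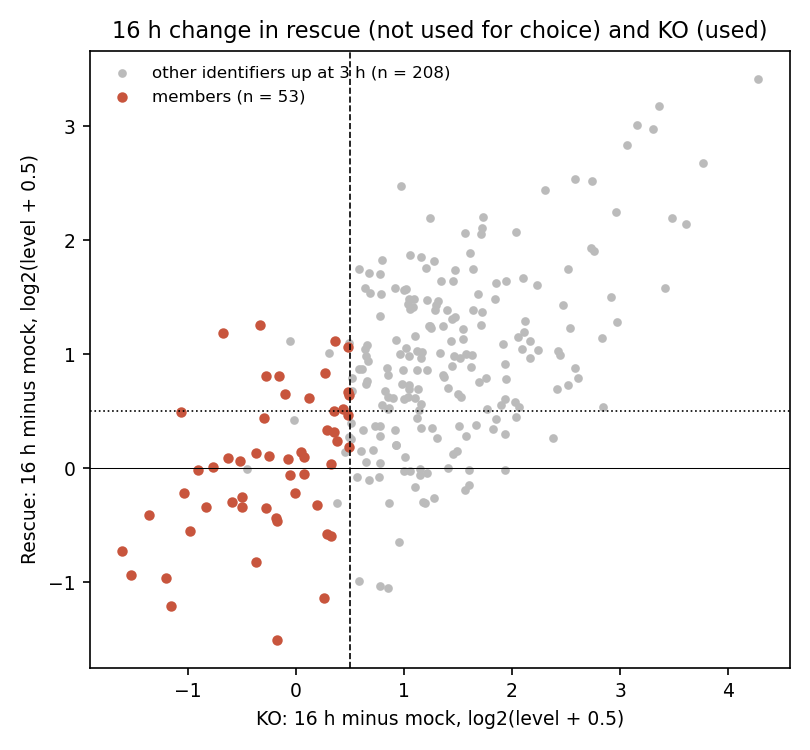
Each point is an identifier that met the 3 h part of the rule, with its change from mock at 16 h in KO on the horizontal axis, which the rule used, and in rescue on the vertical axis, which it did not, both in log2(level + 0.5). Of the 53 members, in red, 40 lie under the dotted line at 0.5 in rescue, beside 55 of the 208 others in grey.

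The limma test of 16 h against mock, with the 3 lines as a block, called 10 members lower, beside 7.21% of identifiers tested. No member was called higher, beside 19.8%. An unadjusted p under 0.05 was reached by 14 members, a count with no share over all identifiers given. WT and KO of that contrast were used by the rule. Over all identifiers this test called 790 higher and 288 lower, and with the trimmed-mean scaling 335 higher and 545 lower, of which 24 were members. Without KO it called 4 members, beside 349 of 3996 identifiers, and without rescue 4, beside 302. Without WT it called 8 members, of which 2 were higher, beside 1369 identifiers, 1091 higher and 278 lower.

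The 2 members with the largest fall in the held-out line are given here. For uc002gys.4, mock levels were 106.2 for WT, 119.2 for KO and 155.7 for rescue, and at 3 h they were 198.3, 222.8 and 293.4. At 16 h they were 31.7 for WT, 105.9 for KO and 54.6 for rescue. The 3 h levels do not overlap with the others, the 16 h level of KO lies just under the lowest mock level, and those of WT and rescue are far under it. The changes at 16 h were -1.73 for WT, -0.17 for KO and -1.50 for rescue. Over the 3 lines the change was -1.13 with a standard error of 0.40 (limma adjusted p = 0.02893, on a contrast used to pick this member). Its change at 3 h was even in the lines, 0.90 for WT, 0.90 for KO and 0.91 for rescue, and it did not pass the limma test at 3 h (adjusted p = 0.1097).

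For uc062dty.1, mock levels were 10.96 for WT, 10.7 for KO and 9.60 for rescue, and at 3 h they were 29.2, 45.5 and 70.5. At 16 h they had gone to 1.74, 4.57 and 3.86. The 3 conditions do not overlap: each 16 h level is under each mock level, and each mock level under each 3 h level. The change at 16 h was -1.57 with a standard error of 0.33 (limma adjusted p = 0.000228, on a contrast used to pick this member). In rescue alone it was -1.21. Its signal at 3 h in KO was 180.6 in the first 1 kb and 14.2 from 5 to 10 kb, and a peak at least as tall at 3 h lay upstream of its start, as the plot of the 4 members by distance shows.

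**Figure D4:**
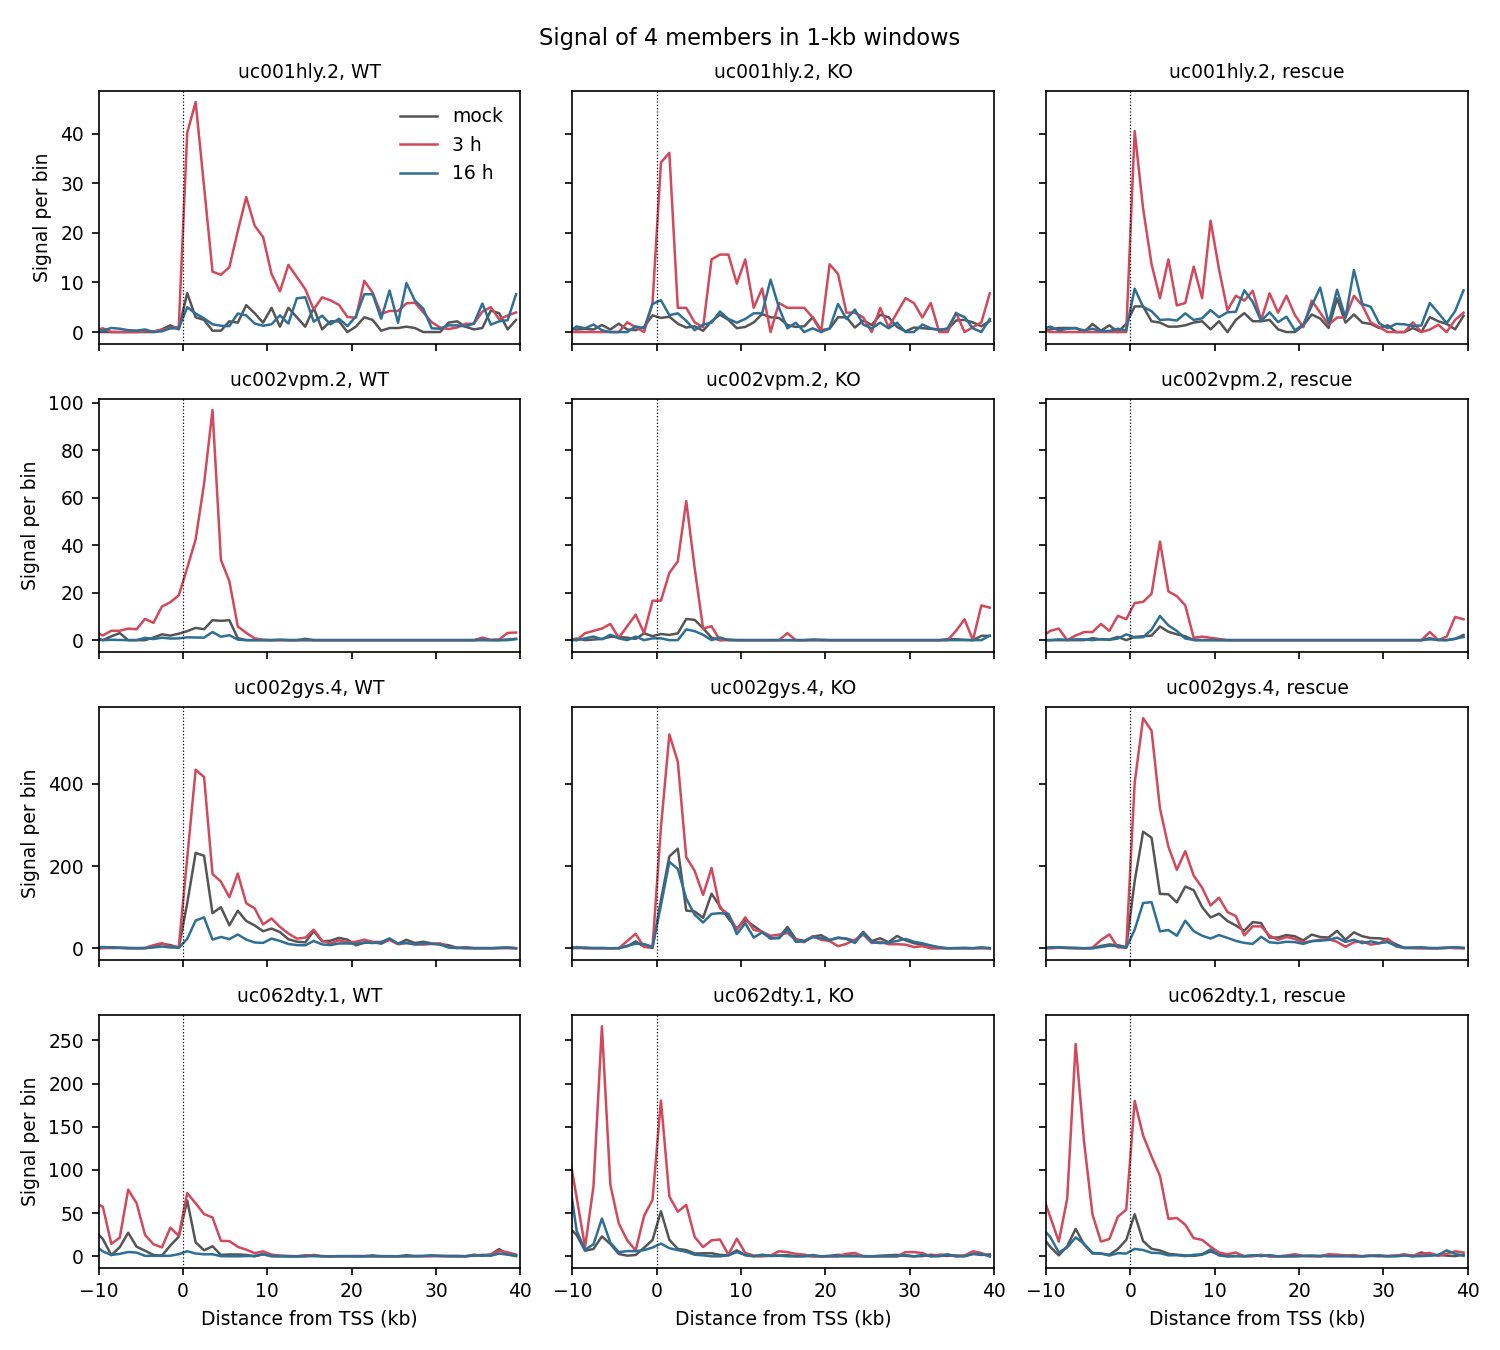
Mean signal per 200-bp bin in 1-kb windows against distance from the TSS, for the 2 members with the largest mean rise at 3 h (upper rows) and the 2 with the lowest rescue change at 16 h (lower rows), with a column for each line and a colour for each condition. The 3 h curve is the tallest in the first 5 kb in every panel, and in KO it meets the other curves in some windows from 5 to 10 kb; in uc002gys.4 the 16 h curve is close to mock in KO and under it in WT and rescue.

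Of the 8 with a mean mock level of 50 or more, 8 were below mock at 16 h in WT, 7 of them by more than 1, while 4 were below in KO and 6 in rescue. All 86 identifiers tested with such a mock level did much the same: 86.0% were below mock in WT, 68.6% by more than 1, 59.3% in KO and 65.1% in rescue. The member with the highest mean mock level had 160.2 in WT mock, 254.4 in KO mock and 306.2 in rescue mock. At 3 h it had 299.5, 552.9 and 856.4, and at 16 h 54.9 for WT, 304.8 for KO and 138.9 for rescue. Its KO level at 16 h was thus within the spread of the mock levels, and its WT and rescue levels were below them.

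A difference in level between the lines across conditions was not used by the rule. In the limma test of KO against WT, with condition as a block, 7 of the 53 members differed, beside 5.78% of identifiers tested: 6 were higher in KO, beside 3.05%, and 1 was lower, beside 2.73%. The members' median difference was 0.23, beside -0.08 over all identifiers, and 14 members had an unadjusted p under 0.05. No share over all identifiers is given for that last count, so it is not read as high or low. The 6 that were higher differed by between 1.06 and 1.70. The largest of these, singled out after its values were seen, had WT levels of 4.74 in mock, 13.1 at 3 h and 2.90 at 16 h. The KO levels were 19.0, 44.2 and 9.06 in the same order, and the rescue levels 17.5, 37.1 and 15.0. KO and rescue lay above WT in each condition, by 1.70 with a standard error of 0.33 for KO (limma adjusted p = 0.0001808).

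The 1 member that was lower in KO had WT levels of 5.17 in mock, 34.6 at 3 h and 3.49 at 16 h, and KO levels of 2.08, 8.49 and 2.79. Its rescue levels were 1.96, 7.61 and 2.99, near those of KO, and the difference of KO from WT was -1.13 with a standard error of 0.34 (limma adjusted p = 0.03078). No member differed between rescue and KO in limma, beside 0.0751% of identifiers, with 0.0501% higher and 0.025% lower, and none had an unadjusted p under 0.05. The KO against WT calls rest on the set of libraries. Without the 3 h libraries limma called 1 member, beside 56 of 3996 identifiers. Without the mock libraries it called none, beside 26 identifiers, with 6 members at an unadjusted p under 0.05, for which no share over all identifiers is given. Without the 16 h libraries it called 14 members, 8 higher and 6 lower in KO, beside 775 identifiers, 220 higher and 555 lower. Without the KO library at 3 h alone it called 3 members, beside 97 identifiers. Line and clone cannot be told apart here.

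The median change at 3 h was above 0.7 in all 3 lines in each window of the first 10 kb and lower in each window beyond. The median change from mock was 1.23 for WT, 1.60 for KO and 1.47 for rescue from 0 to 1 kb. In the next window, from 1 to 5 kb, it was 1.69, 1.36 and 1.74. From 5 to 10 kb it was 1.36 for WT, 0.72 for KO and 1.31 for rescue. Beyond the window that the rule used, it was 0.48 for WT, 0.40 for KO and 0.53 for rescue from 10 to 25 kb, with 45, 37 and 46 of the 53 members higher than mock. Over all 3996 identifiers, 2279, 1918 and 1762 were higher there, with medians of 0.09, 0.00 and -0.06. Of the 208 others that met the 3 h part of the rule, 193, 182 and 175 were higher there. Their medians were 0.63, 0.69 and 0.64, so this rise is not particular to the members. From 25 to 50 kb the medians were 0.05, -0.01 and 0.12. KO was the line whose change dropped most between the windows at 1 to 5 kb and 5 to 10 kb, in its shallowest library. A window past the end of a short transcript holds little signal or that of a neighbour, and gene ends were not analysed here.

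The profile at the TSS shows the same in levels. In WT the median member had 15.2 in mock, 60.0 at 3 h and 6.94 at 16 h in the window from 1 to 2 kb. In KO it had 19.1, 57.6 and 15.1, and in rescue 16.0, 46.4 and 14.8. In the window from 9 to 10 kb the same medians at 3 h were 10.2 for WT, 11.7 for KO and 11.2 for rescue. The first 10 kb held a median of 82.1% of the signal of the first 25 kb at 3 h for WT, 80.2% for KO and 78.7% for rescue, against 67.1%, 63.1% and 64.0% in mock. All identifiers tested also rose in this share in each line, WT going from 62.7% to 70.2%, KO from 57.8% to 61.5% and rescue from 56.1% to 63.2%. The rule chose members by a rise in the first 10 kb, so a rise in this share partly follows from the choice. In the 208 others that met the 3 h part of the rule, WT went from 62.1% to 74.8%. There KO went from 57.9% to 67.6% and rescue from 56.8% to 69.4%.

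**Figure D5:**
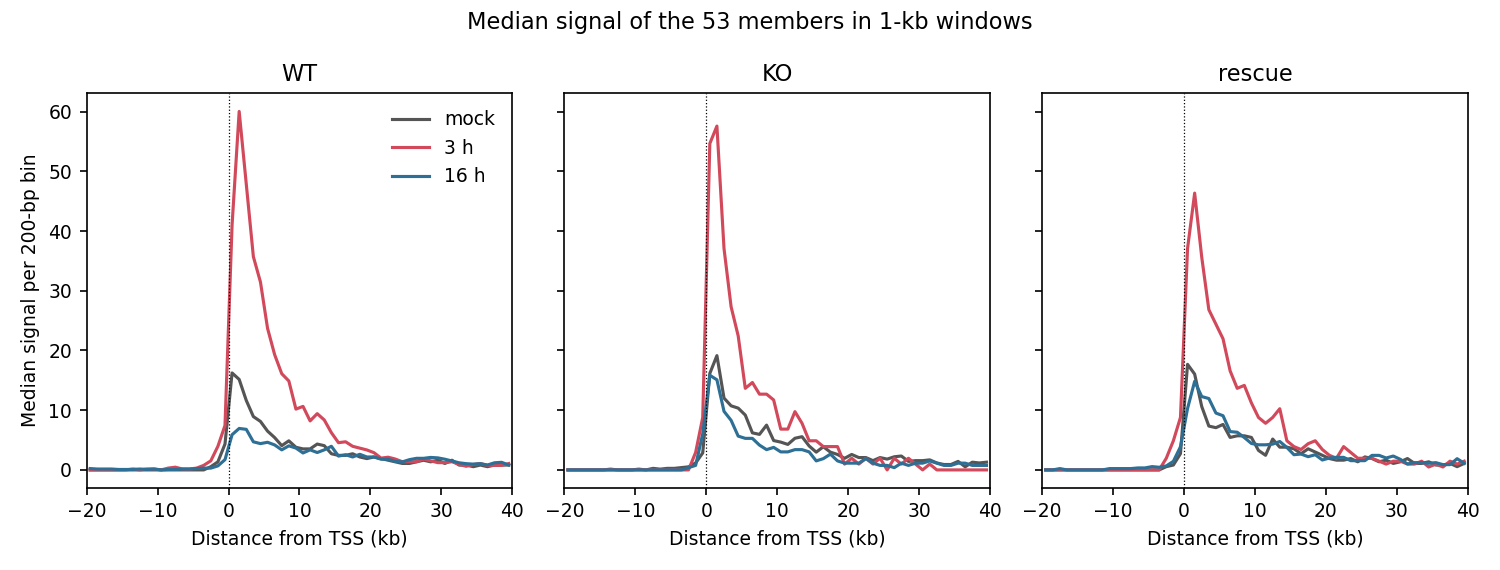
Median over the 53 members of the signal per 200-bp bin in 1-kb windows, against distance from the TSS, with a panel for each line and a colour for each condition. The 3 h peak lies from 1 to 2 kb in all 3 lines, at 60.0 for WT, 57.6 for KO and 46.4 for rescue; in the window from 0 to 1 kb the 16 h median is 5.90 against 16.2 in mock for WT, 15.8 against 16.2 for KO and 10.3 against 17.7 for rescue.

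At 16 h the change near the start was lowest in WT, among the members and among all identifiers alike, so this order is not particular to the members. From 0 to 1 kb the median change was -1.06 in WT, with 47 of the 53 members below mock, against 0.00 in KO, with 24 below, and -0.02 in rescue, with 27 below. Over all 3996 identifiers, 2447, 1051 and 1318 were below mock, and the same medians were -0.29 for WT, 0.75 for KO and 0.36 for rescue. From 1 to 5 kb the members' medians were -1.06, -0.15 and 0.18. They were -0.55, -0.27 and -0.01 from 5 to 10 kb. The share of the first 10 kb in the first 25 kb at 16 h had dropped to 53.8% in WT, under its mock, and was 71.4% in KO and 66.4% in rescue. All identifiers had 52.5%, 65.2% and 60.6% in the same order, close to the members in WT.

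Within the first 5 kb, KO had more of its signal in the first 1 kb. The median of log2 of the mean level of the first 1 kb over that of the next 4 kb, with a pseudocount of 1, was 0.15 for KO in mock, 0.44 for KO at 3 h and 0.50 for KO at 16 h. In WT it was 0.11, -0.18 and -0.10, and in rescue 0.00, 0.07 and -0.29. All identifiers had 0.00, 0.00 and 0.29 in KO and 0.17, -0.12 and -0.04 in WT. The members' order of lines after UV was thus that of all identifiers between KO and WT, and these values have no test.

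Signal upstream of the TSS rose too, from a low level. From 5 to 1 kb upstream the median level of WT went from 0.88 in mock to 2.01 at 3 h, that of KO from 0.91 to 2.44 and that of rescue from 0.68 to 2.56. The median changes were 0.69, 1.09 and 1.16, with 45, 35 and 39 members higher, while over all identifiers they were 0.00, -0.09 and 0.00, with 1962, 1264 and 1602 of 3996 higher. The rule did not use these bins. From 10 to 5 kb upstream the medians were 0.31 for WT, 0.00 for KO and 0.00 for rescue. The source of this signal was not tested.

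Members can share a stretch of the genome, because each identifier is given with 100 kb on both sides. The planned limit, a correlation of 0.8 between shifted or mirrored profiles, joined 45 members into groups and left 9 separate loci, while the median best correlation over all 1378 pairs was already 0.61, so that this limit did not separate neighbours from the rest. At 0.95, a limit chosen after the values were seen, 6 pairs with correlations from 0.979 to 0.995 stood apart from the next pair at 0.942, and 48 loci remained. The starts within those pairs were 41.4 to 134 kb apart, so their first 10 kb did not overlap. Of the 6 pairs, 1 was mirrored and included uc062dty.1: the pair lay 66.4 kb apart in opposite orientation, and in each of the 9 libraries the profiles correlated at between 0.966 and 0.987 when 1 was turned around. The same signal was thus counted for both orientations there, and signal of the opposite strand cannot be told apart from that of the member. With 1 member per locus, 36 of 48 were under 0.5 in rescue at 16 h, and the median rescue change was 0.06.

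The limits of the rule pass through a continuous range. The lowest 3 h change just inside was 0.80 and just outside 0.79, with 7 members within 0.1 inside and 12 identifiers within 0.1 outside that met the rest of the rule. At 16 h the nearest values were 0.495 inside and 0.511 outside, with 7 and 5 within 0.1. The nearest mean 3 h levels were 2.01 inside and 1.97 outside.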

How the data were processed

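The deposited signal is coverage in 200-bp bins, in 1001 columns over 100 kb on either side of each TSS, per the file headers, and had been scaled by the authors to similar totals. Within each library, every value was a whole number of its smallest steps (tolerance 0.02). The submitters' processing notes list STAR 2.7.7a and HOMER 4.8.2 among their tools and the builds GRCh38 and hg38, without roles; per the labels' protocols, libraries were TruSeq, sequenced as 151 bp paired ends. Use of strand and a spike-in are not given in the sources used here. Another 3 tables of averaged signal were not used here.

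From these files, levels were computed as mean signal per bin from 0 to 10 kb and tested on log2(level + 0.5), which understates the change of low levels. The tool was limma 3.58.1 under R 4.3.3, with a mean-variance trend and moderated variances, and p-values were adjusted by Benjamini-Hochberg with a threshold of 0.05. It ran on the 3996 identifiers whose mean level over the 9 libraries reached 0.5. All 53 members pass that filter by their 3 h level. Line and condition were both in the model, with 4 degrees of freedom left for error. That error is the departure of single libraries from additive effects of line and condition. With no repeat cultures, the spread between cultures cannot be told apart from it. Members, lists and tests were chosen with earlier results of these data known. Named identifiers are the 2 members with the largest mean 3 h change and the 2 with the lowest rescue change at 16 h. None of the 7936 identifiers (of 9805 in any library) matched the reference table, so the planned gene lists, markers and sequences were not used here. The fits were tested on simulated data. Alternatives were the filter, pseudocount, trimmed-mean scaling (factors from 0.778 to 1.28), window, block and each line or condition left out. Python 3.11.15 was used for the rest. The small number of libraries limits the precision, and the step sets the finest level that each library can show.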

Additional observations from a re-analysis of the deposited data

Results flagged for a closer look

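The median change at 16 h over the 53 members lay below 0 in WT, at -0.85, and above 0 in rescue, at 0.067. These are opposite directions under the same contrast, and the difference was not tested, because each line has 1 mock and 1 irradiated library. The rule capped this change in WT and not in rescue, so part of the difference follows from the choice. With the trimmed-mean scaling both medians were below 0. Of the members named by identifier, uc001hly.2 had 16 h changes of -0.15 for WT, 0.48 for KO and 0.67 for rescue, and uc002vpm.2 by -1.51 for WT, -1.06 for KO and 0.50 for rescue. Their lines also moved in opposite directions, and these differences were not tested.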

How the results depend on the processing

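No paired analysis by replicate number was possible because each group holds 1 library; line was the block in the fits over time. At 3 h limma called 36 members with no line block, beside 371 of 3996 identifiers, and 9 with no filter on the level, beside 106 of 7936. Leaving out a line gave between 17 and 47 members, beside between 227 and 460 identifiers. At 16 h the count was 3 with no filter, beside 324 of 7936 identifiers, and 24 with the trimmed-mean scaling, beside 880 of 4000. It was 5 with no line block, beside 557 of 3996, and between 4 and 8 with a line left out, beside between 302 and 1369. For KO against WT it was 0 with no filter, beside 7 of 7936 identifiers, with 12 members at an unadjusted p under 0.05. With no condition block it was 0, beside 10 of 3996, with 3 members at an unadjusted p under 0.05. It was 2 with only the KO and WT libraries, beside 147, and 3 without the KO library at 3 h (added after seeing the data), beside 97. With a condition left out it was between 0 and 14, beside between 26 and 775. Rescue against KO called 0 under each of its 12 alternatives, with at most 3 at an unadjusted p under 0.05. No shares over all identifiers are given for the counts at an unadjusted p, so they are not read as high or low. Over all identifiers at 3 h, calls were 487 higher and 246 lower, and 303 and 375 with the trimmed-mean scaling. A 3 h threshold of 1 left 35 members. The rule found 46 with the trimmed-mean scaling, 29 of them among the 53, 36 over 0 to 25 kb, with 30 shared, 54 over 0 to 5 kb, with 36 shared, 52 with a pseudocount of 0.1, with 48 shared, and 46 with a pseudocount of 2, with 43 shared. Of the 53, 29 still changed by 0.8 or more in all lines at 3 h under the trimmed-mean scaling. The median 3 h change in WT, KO and rescue was 1.63, 1.43 and 1.72 over 0 to 5 kb, 1.18, 1.01 and 1.21 over 0 to 25 kb, 0.95, 1.18 and 1.31 with the trimmed-mean scaling and 1.28, 1.16 and 1.40 with a pseudocount of 2; in rescue it was 1.61 with a pseudocount of 0.1. The median rescue change at 16 h was -0.49 with the trimmed-mean scaling and -0.062 in the 27 members of higher mock level, 21 of which were under 0.5. A correlation limit of 0.6 gave 2 loci, 0.9 gave 33 and the added 0.95 gave 48. The causes of these shifts were not tested, other than that fewer members or libraries enter some of them. Depth limits the 4 members under 20 steps; without them the rescue median at 16 h was 0.03 and 38 of 49 were under 0.5.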
